A study of Homo sapiens with 6 samples.

Results

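The genes described here are 10 genes of TGF-beta signaling, the ligands TGFB1, TGFB2 and TGFB3, the receptors TGFBR1 and TGFBR2, the signal transducer SMAD3, the inhibitory SMAD7, and the early targets PMEPA1, SKIL and TGFBI. They were chosen by name, and 9 of the 10 were found among the 50868 genes with values. TGFB1 was not analysed here. RNA sequencing was performed in UM-UC-3 and 5637, established human lines from bladder carcinomas, each stably infected by lentivirus with a control hairpin (sh-NC) or with 1 of 2 hairpins against the long noncoding RNA LNMAT1 (sh-LNMAT1#1 and sh-LNMAT1#2) and selected with puromycin. There was 1 library for each construct in each line, 6 in all, so no construct had a replicate within a line. Gene levels were deposited as FPKM, a fragment count divided by gene length and library depth, and the depth lay between 19374809 and 24706825 fragments. LNMAT1, listed as LINC01296, was lower in every sh-LNMAT1 library than in the control of its labelled line, at 6.20 and 6.70 against 14.2 FPKM in UM-UC-3 and at 4.70 and 2.14 against 11.7 FPKM in 5637. The 5637 control resembled the UM-UC-3 libraries, as described below. In 5637 a knockdown of LNMAT1 and a difference of line therefore cannot be told apart.

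TGF-beta is secreted in a latent complex and signals, once released, through a type II receptor (TGFBR2) that activates a type I receptor (TGFBR1). The type I receptor phosphorylates SMAD2 and SMAD3, which enter the nucleus with SMAD4 and bind DNA at the SMAD-binding element, whose core letters are CAGAC. Among the genes switched on early are SMAD7, SKIL and PMEPA1, which restrain the pathway, and TGFBI, a secreted matrix protein. In epithelial cells the pathway slows growth and can drive a mesenchymal state.

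The library labelled 5637 sh-NC stood apart from its label. Across 12717 genes its Pearson correlation on the log2 scale was 0.617 and 0.622 with the 5637 sh-LNMAT1 libraries and 0.922, 0.985 and 0.933 with the UM-UC-3 libraries. The 15 epithelial markers, keratins, CDH1 and EPCAM among them, summed to 787 and 1071 FPKM in the 5637 sh-LNMAT1 libraries, where 11 of 15 reached 1 FPKM, and to 26.2 to 32.9 FPKM in the other 4 libraries. Of the basal markers in this list, KRT5 was 81.1 and 155 FPKM in the 5637 sh-LNMAT1 libraries, KRT17 52.1 and 89.4, and TP63 11.7 and 13.9. These 3 genes were at most 0.238 FPKM in the other 4 libraries. The basal marker KRT14 and the umbrella cell markers UPK1A, UPK2 and UPK3A were below 1 FPKM in all 6 libraries. The 5 mesenchymal markers summed to 122 and 119 FPKM in the 5637 sh-LNMAT1 libraries and to 139 to 364 in the other 4, and did not move as a set. VIM and ZEB1 were 3.85 and 4.14 FPKM and at most 0.0264 FPKM in the 5637 sh-LNMAT1 libraries, against 103 to 332 and 8.67 to 12.7 in the other 4, whereas FN1 was 110 and 102 FPKM against 0.816 to 2.27. CDH2 was 8.18 and 11.9 FPKM against 17.5 to 24.8, and ZEB2 at most 1.16 FPKM throughout. The 5 fibroblast markers summed to 8.36 and 6.68 FPKM, of which COL1A1 made up 7.92 and 6.37, against 0.150 to 0.460 in the other 4, and DCN was at most 0.0262 FPKM. The 4 leukocyte markers summed to 0.769 and 0.879 FPKM against 13.0 to 31.0 in the other 4, nearly all of it CD68, a lysosomal protein, while PTPRC, CD3E and CD79A were at most 0.0664 FPKM. The 3 endothelial markers summed to at most 0.284 FPKM. The part of these markers in the results was not tested. Comparisons that use this library are therefore given apart from those that do not, and the part of the label in them was not tested.

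The sequences before the start sites of the 4 genes that were higher in 5637 than in UM-UC-3 (TGFB2, SMAD7, PMEPA1 and SKIL, described in the paragraphs that follow) are shown to let a reader see where the SMAD core letters lie. They are RefSeq sequences of GRCh38.p14, written 5′ to 3′ in the direction of the gene, up to 250 bases before a start site and without bases of the gene's own exons. For each gene the window with the most cores outside its own exons was taken, and among equals the one nearest to the gene's first base. The SMAD7 and PMEPA1 stretches lie within the span of their gene, before a start site further in. The PMEPA1 window at the gene's first base (chr20:57711473-57711722) held 0 cores. A SMAD7 window with 2 cores (chr18:48950966-48951215) lies within an exon that GENCODE gives SMAD7 and is not shown. Capitals mark CAGAC or, for the other strand, GTCTG.
TGFB2, chr1:218345086-218345335, plus strand: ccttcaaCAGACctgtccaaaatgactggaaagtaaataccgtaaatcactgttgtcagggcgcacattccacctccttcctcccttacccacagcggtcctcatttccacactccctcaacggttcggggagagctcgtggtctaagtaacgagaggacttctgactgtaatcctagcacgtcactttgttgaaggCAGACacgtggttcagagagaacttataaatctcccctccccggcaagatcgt
SMAD7, chr18:48949334-48949583, minus strand: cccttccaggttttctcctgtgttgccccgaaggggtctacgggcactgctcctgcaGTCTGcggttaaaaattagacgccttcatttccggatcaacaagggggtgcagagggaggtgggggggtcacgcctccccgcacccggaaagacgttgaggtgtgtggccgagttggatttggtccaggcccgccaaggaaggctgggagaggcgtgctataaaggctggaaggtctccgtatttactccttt
PMEPA1, chr20:57710590-57710827, minus strand: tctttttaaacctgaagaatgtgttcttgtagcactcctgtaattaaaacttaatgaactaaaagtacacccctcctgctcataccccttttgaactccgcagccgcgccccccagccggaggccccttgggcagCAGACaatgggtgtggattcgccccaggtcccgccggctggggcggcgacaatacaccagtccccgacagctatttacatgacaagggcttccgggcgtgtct
SKIL, chr3:170357465-170357677, plus strand: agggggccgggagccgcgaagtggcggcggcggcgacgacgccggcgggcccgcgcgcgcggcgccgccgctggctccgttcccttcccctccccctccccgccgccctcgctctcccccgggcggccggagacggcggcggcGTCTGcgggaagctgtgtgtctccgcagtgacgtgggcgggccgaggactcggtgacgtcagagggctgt
TGFB2 had 2 cores in this stretch, and SMAD7, PMEPA1 and SKIL had 1 each. Over all 28 RefSeq windows of 250 bases for the 10 genes, 13 (46.4%) held at least 1 core and 6 (21.4%) at least 2, against 38.0% and 8.84% of 35116 windows in the table. TGFBR1 gave 8 of the 28, and windows of 1 gene can overlap and share a core, so they are not independent. Of the 17 windows outside the exons of their own gene, 7 held at least 1 core. TGFB1, TGFBR2 and TGFBI had no core in their windows, and no window of the 10 genes held the palindrome GTCTAGAC, which occurred in 0.182% of all windows. A match of letters describes the sequence and does not show binding.

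**Figure D1:**
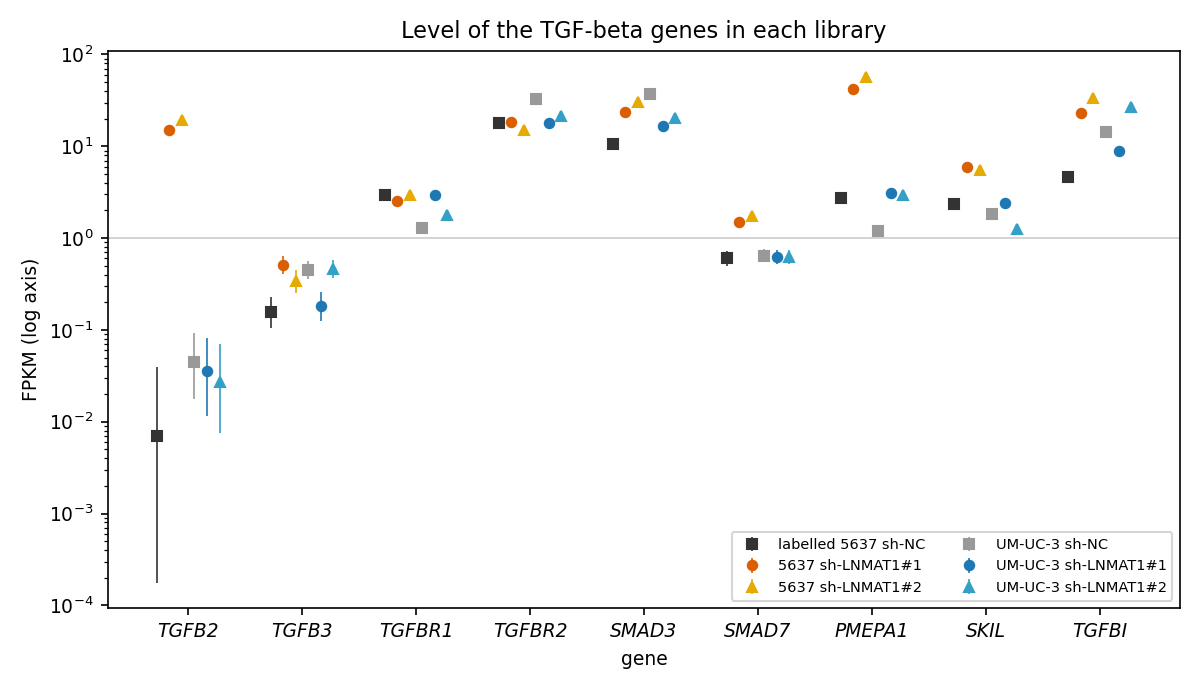
Level of the 9 genes in each of the 6 libraries as deposited, in FPKM on a log axis. Points are single libraries and bars are 95% Poisson intervals of the fragment counts, which cover counting error only. TGFB2, SMAD7, PMEPA1 and SKIL were higher in both 5637 sh-LNMAT1 libraries than in the other 4 libraries. The share of all genes that lay apart in this way was not counted.

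To describe which of the genes the cells carried, levels were first compared between genes. The deposited FPKM divide by the summed lengths of all distinct exons, so that overlapping exons count more than once, and the length used exceeded the covered exon length by 1.23 times for TGFB2 and 2.64 times for TGFBR1. Levels between genes are therefore given per covered exon length. In UM-UC-3 sh-NC, the order per covered length was TGFBR2 at 54.9, SMAD3 at 53.9, TGFBI at 27.4, SKIL at 3.50, TGFBR1 at 3.45, PMEPA1 at 2.43, SMAD7 at 1.21, TGFB3 at 0.700 and TGFB2 at 0.0550. In 5637 sh-LNMAT1#1, PMEPA1 led with 85.5, followed by TGFBI at 44.9, SMAD3 at 33.7, TGFBR2 at 30.3, TGFB2 at 18.5, SKIL at 11.2, TGFBR1 at 6.71, SMAD7 at 2.85 and TGFB3 at 0.783. The order in 5637 sh-LNMAT1#2 was the same, with PMEPA1 at 117 and TGFB3 at 0.525. In UM-UC-3 sh-NC the neighbours TGFBR2 and SMAD3, and SKIL and TGFBR1, differed by less than the 2 hairpin libraries of that line did from each other for the same genes. The same held in 5637 sh-LNMAT1#2 for TGFBR2 at 24.8 and TGFB2 at 23.8. The order of UM-UC-3 sh-NC did not hold for the whole line. In UM-UC-3 sh-LNMAT1#2 TGFBI led with 51.75, followed by TGFBR2 at 35.3 and SMAD3 at 29.4. The type II receptor and SMAD3 were thus among the 4 most abundant of the 9 genes in both lines, and the ligands TGFB2 and TGFB3 were the 2 lowest in UM-UC-3 sh-NC.

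To compare the lines without either sh-NC library, the 2 5637 sh-LNMAT1 libraries were set against the 2 UM-UC-3 sh-LNMAT1 libraries, the hairpins serving as the only repeats, which leaves 2 residual degrees of freedom. Genes that averaged 1 FPKM or more over the 4 libraries were tested by limma on log2(FPKM + 0.5), a scale that understates the difference of low genes. Of the 8 members tested, 4 rose in 5637 relative to UM-UC-3 and 0 fell. TGFB2 and SMAD7 reached the filter only through the 5637 libraries, so they could have been tested only with 5637 higher, and their calls are no support for a direction of the group. Over all 12844 genes tested, 20.1% were called higher and 18.4% lower at an adjusted p under 0.05, beside 4 of the 8 members called higher. These libraries differ in cell line and so in the epithelial markers given above, whose part in these differences cannot be told apart from the line. In bulk RNA, fewer cells expressing a gene and less of its RNA per cell cannot be told apart either.

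Among the ligands, TGFB2 differed most. TGFB2 (ENSG00000092969, chromosome 1 from 218346235 to 218444619, plus strand) encodes a ligand that requires a coreceptor for efficient binding. It was 15.0 FPKM in 5637 sh-LNMAT1#1 and 19.3 in 5637 sh-LNMAT1#2, from 1978 and 2373 fragments. It was 0.0353 FPKM in UM-UC-3 sh-LNMAT1#1, 0.0274 in UM-UC-3 sh-LNMAT1#2, 0.0446 in UM-UC-3 sh-NC and 0.00701 in the library labelled 5637 sh-NC, from 5, 4, 7 and 1 fragments. TGFB2 was thus present in the 5637 sh-LNMAT1 libraries and close to absent in the other 4. The log2 difference between the lines was 5.04 ± 0.22 (SE, adjusted p = 0.000183). On the linear scale TGFB2 was 424-fold higher in 5637 than in UM-UC-3 with sh-LNMAT1#1 (95% interval 181 to 1306) and 703-fold higher with sh-LNMAT1#2 (274 to 2581), intervals of the fragment counts alone. The gene TGFB2-OT1 on the same strand shares 1371 exon bases with TGFB2 and was at most 0.877 FPKM.

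TGFB3 (ENSG00000119699, chromosome 14 from 75958099 to 75982991, minus strand) encodes the third ligand and stayed below 1 FPKM throughout. In UM-UC-3 it measured 0.454 FPKM in the control, 0.183 with the first hairpin and 0.460 with the second. The library labelled 5637 sh-NC had 0.159 FPKM, and the 5637 sh-LNMAT1 libraries had 0.507 and 0.340. The lines overlapped, the fragments behind these values numbered 27 to 85, and the gene did not pass the filter for any test.

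Neither receptor passed the test between the lines. TGFBR1 (ENSG00000106799, chromosome 9 from 99104038 to 99154192, plus strand), the type I receptor kinase, was 2.54 and 2.93 FPKM in the 5637 sh-LNMAT1 libraries and 2.97 and 1.80 in the UM-UC-3 sh-LNMAT1 libraries, a log2 difference of 0.19 ± 0.27 (SE, adjusted p = 0.605). TGFBR2 (ENSG00000163513, chromosome 3 from 30606502 to 30694142, plus strand), the type II receptor kinase, was 18.3 and 15.0 FPKM in 5637 and 18.1 and 21.3 in UM-UC-3, a log2 difference of -0.24 ± 0.21 (SE, adjusted p = 0.412). The highest TGFBR2 value, 33.2 FPKM, and the lowest TGFBR1 value, 1.31 FPKM, were both in UM-UC-3 sh-NC. TGFBR3, the coreceptor that presents TGFB2 to the signaling receptors, was 0.0970 and 0.220 FPKM in the 5637 sh-LNMAT1 libraries, where TGFB2 was present, and 0.987 to 1.46 FPKM in the other 4, and it averaged too low for the test.

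Of the SMADs, SMAD7 rose and SMAD3 did not pass the test. SMAD7 (ENSG00000101665, chromosome 18 from 48919853 to 48950711, minus strand), the inhibitory SMAD that the pathway induces, was 1.51 and 1.74 FPKM in the 5637 sh-LNMAT1 libraries. It was between 0.602 and 0.645 FPKM in the other 4 libraries, a range that did not reach the 5637 values. The log2 difference between the lines was 0.91 ± 0.20 (SE, adjusted p = 0.0195). SMAD3 (ENSG00000166949, chromosome 15 from 67063763 to 67195195, plus strand), the receptor-activated transducer, was 23.4 and 30.3 FPKM in 5637 and 16.5 and 20.4 in UM-UC-3, a log2 difference of 0.52 ± 0.23 (SE, adjusted p = 0.131).

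Among the targets, PMEPA1 and SKIL rose. PMEPA1 (ENSG00000124225, chromosome 20 from 57648392 to 57711536, minus strand), a membrane protein that sequesters receptor-activated SMADs, was 41.8 and 57.2 FPKM in the 5637 sh-LNMAT1 libraries. It was 3.09 and 2.95 FPKM in the UM-UC-3 sh-LNMAT1 libraries, 1.19 in UM-UC-3 sh-NC and 2.77 in the library labelled 5637 sh-NC. The lowest 5637 sh-LNMAT1 value was 13.5 times the highest of the other 4, and the log2 difference between the lines was 3.81 ± 0.23 (SE, adjusted p = 0.000318). The antisense gene NKILA, which shares 343 exon bases with PMEPA1, was 18.4 and 16.5 FPKM in the 5637 sh-LNMAT1 libraries and 0.826 to 1.78 in the other 4. The library kit kept the strand, but whether strand was used in counting is not given in the sources used here, so fragments in the shared bases could belong to either gene.

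SKIL (ENSG00000136603, chromosome 3 from 170357678 to 170396835, plus strand), the SnoN corepressor of SMAD complexes, was 5.88 and 5.53 FPKM in the 5637 sh-LNMAT1 libraries and 2.42 and 1.27 in the UM-UC-3 sh-LNMAT1 libraries. UM-UC-3 sh-NC, at 1.83 FPKM, and the library labelled 5637 sh-NC, at 2.35, lay within the UM-UC-3 range. The log2 difference between the lines was 1.45 ± 0.30 (SE, adjusted p = 0.0154). TGFBI (ENSG00000120708, chromosome 5 from 136028895 to 136063818, plus strand) was 23.3 and 33.2 FPKM in 5637 and 8.87 and 26.9 in UM-UC-3. The lines overlapped for TGFBI, and the log2 difference of 0.82 ± 0.53 did not pass the test (SE, adjusted p = 0.266).

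**Figure D2:**
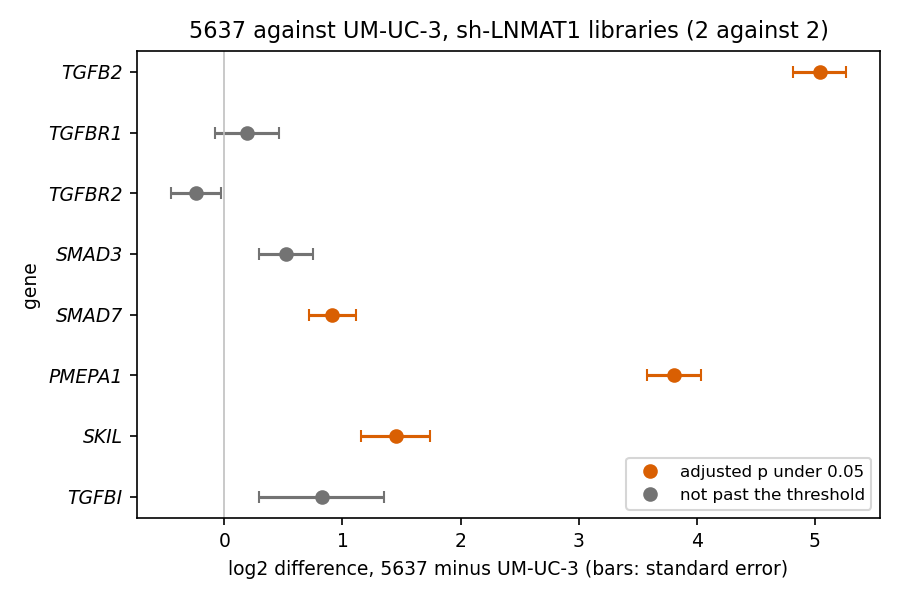
Log2 difference between the 2 5637 and the 2 UM-UC-3 sh-LNMAT1 libraries for the 8 genes tested, on the scale of log2(FPKM + 0.5), with bars of 1 standard error. TGFB2 and PMEPA1 lie at 5.04 and 3.81, SKIL and SMAD7 at 1.45 and 0.91, and the receptors, SMAD3 and TGFBI did not pass the threshold.

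The calls of TGFB2 and PMEPA1 held when any 1 of the 4 libraries was left out, in fits where the lone library of a line is assumed to vary like the pair of the other line. SMAD7 and SKIL lost their calls under some settings. Without a filter on low values the adjusted p was 0.0555 for SMAD7 and 0.0604 for SKIL, and without 5637 sh-LNMAT1#1 or 5637 sh-LNMAT1#2 it was 0.179 or 0.154 for SKIL. SMAD7 no longer reached the filter when either 5637 library was left out. Without UM-UC-3 sh-LNMAT1#2, the library in which TGFBI overlapped 5637, the log2 difference of TGFBI was 1.60 (adjusted p = 0.0223), under the same assumption.

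To set these genes in the rest of the pathway, 88 other genes of the superfamily were taken in 5 lists. Of the 68 tested, 23 (33.8%) rose in 5637 relative to UM-UC-3 and 18 (26.5%) fell, against 20.1% and 18.4% of all genes. The median log2 difference of the 68 was -0.19. Genes of the superfamily were thus called in both directions. A gene below 1 FPKM in both libraries of a line reached the filter only through the other line. It could have been called higher only in that other line, so its call is no support for a direction of its list.

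Of 12 genes that hold or release latent TGF-beta 9 were tested, of which 5 rose in 5637 (55.6%) and 2 fell (22.2%). Among those that rose, THBS1, ITGB6, ITGB8 and LTBP3 reached the filter only through the 5637 libraries and could have been called only as higher. The shares of this list are therefore no support for a direction. THBS1, a matrix protein that activates latent TGF-beta, was 44.1 and 69.1 FPKM in the 5637 sh-LNMAT1 libraries and 0.0803 and 0.293 in the UM-UC-3 sh-LNMAT1 libraries, a log2 difference of 6.36 ± 0.31 (SE, adjusted p = 0.000209). ITGB6 and ITGB8, integrin chains that release the ligand from its latent complex, differed by 4.53 ± 0.21 and 3.54 ± 0.20 (SE). Of the latent binding proteins, LTBP3 rose by 2.15 ± 0.25, LTBP2 and LTBP4 differed by -1.88 ± 0.34 and -1.84 ± 0.31, and LTBP1 at -0.21 ± 0.46 did not pass the test (SE).

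Among the other receptors 7 were tested, of which 1 rose (14.3%) and 3 fell (42.9%). ACVR2A, an activin receptor, differed by 0.95 ± 0.20, and the BMP receptors BMPR1B, ACVR1 and BMPR1A by -1.99 ± 0.29, -1.19 ± 0.29 and -1.09 ± 0.21 (SE). ACVR2A reached the filter only through 5637, and BMPR1B only through UM-UC-3. Among the other ligands and traps 5 of 9 rose (55.6%) and 3 fell (33.3%). Of these, INHBA and FST reached the filter only through 5637, and BMP6 and BMP7 only through UM-UC-3. INHBA, the activin A subunit, was 17.3 and 24.0 FPKM in 5637 and 0.498 and 0.0949 in UM-UC-3, a log2 difference of 4.76 ± 0.33. FST, the trap of activin, differed by 3.07 ± 0.19, and BMP2 by 2.25 ± 0.27 (SE). BMP6 was 0.588 and 0.427 FPKM in 5637 and 52.9 and 29.5 in UM-UC-3, a log2 difference of -5.32 ± 0.33, and BMP7 and the BMP antagonist NOG differed by -2.37 ± 0.19 and -1.49 ± 0.35 (SE).

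Of 19 other SMADs and regulators of SMADs tested, 2 rose and 5 fell, shares of 10.5% and 26.3% beside 20.1% and 18.4% of all genes. LEMD3, which binds SMADs at the inner nuclear membrane, and the inhibitory SMAD6 differed by 1.13 ± 0.21 and 1.05 ± 0.29 (SE). ZFYVE9, the SARA anchor that presents SMADs to the receptor, differed by -1.41 ± 0.22, the deubiquitinase USP15 by -1.09 ± 0.27, and FKBP1A, which binds the resting type I receptor, by -0.96 ± 0.21 (SE). SMAD2 and SMAD4 were 0.991 to 2.70 FPKM in these 4 libraries and did not pass the test.

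Of 26 other genes known to be induced by TGF-beta, 12 rose in 5637 (46.2%) and 5 fell (19.2%), beside 20.1% and 18.4% of all genes. FN1, fibronectin, was 110 and 102 FPKM in 5637 and 2.27 and 1.07 in UM-UC-3, a log2 difference of 5.67 ± 0.31 (SE). The matricellular genes CCN2 and CCN1, listed as CTGF and CYR61, which YAP also induces, differed by -6.04 ± 0.35 and -4.54 ± 0.32 (SE). CCN2 was 3.76 and 2.83 FPKM in 5637 and 178 and 341 in UM-UC-3. PMEPA1 and CCN2, both classed as targets, thus lay on opposite sides. THBS1 and ITGB6 are in this list as well as in that of latent TGF-beta, with the same limit of the filter.

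**Figure D3:**
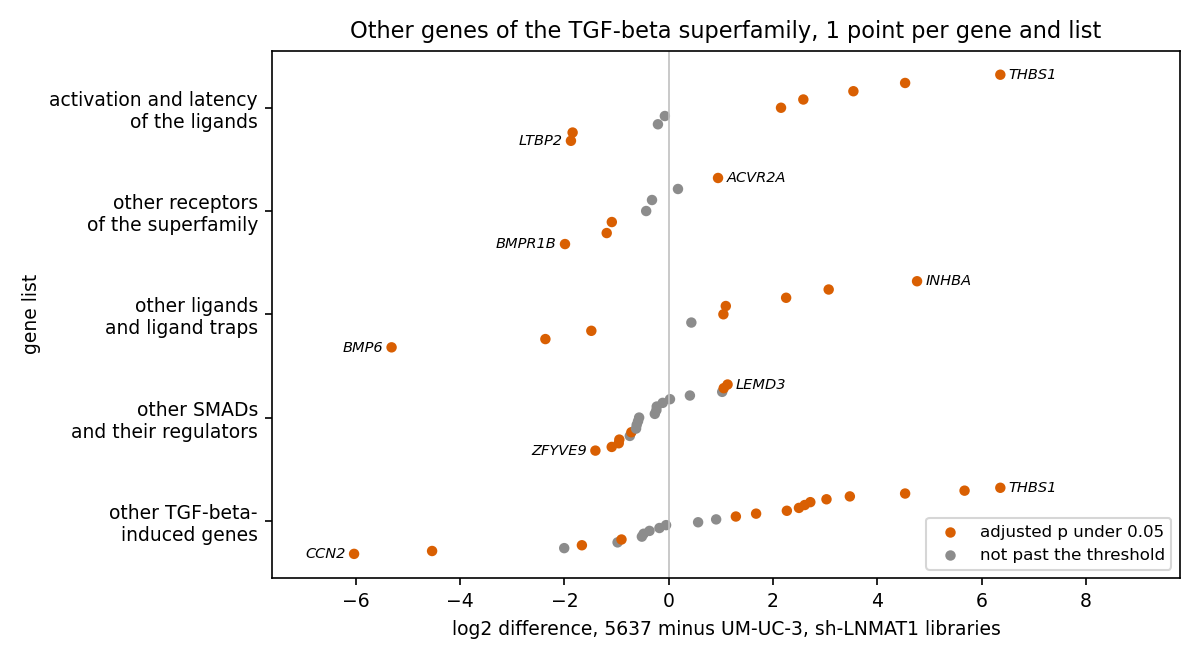
Log2 difference between the 2 5637 and the 2 UM-UC-3 sh-LNMAT1 libraries for 66 of the 68 tested genes of 5 lists, 1 point per gene and list, ordered within each list. Of the genes drawn 22 were called higher and 17 lower, with the outermost called genes of each list named.

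To examine the knockdown of LNMAT1 over both lines, the 4 sh-LNMAT1 libraries were compared with the 2 libraries labelled sh-NC, with the line as a covariate and 3 residual degrees of freedom. By limma, 0% of the 12717 genes tested were called in either direction, with 811 genes at an unadjusted p under 0.05, and so 0 of 7 members tested. PMEPA1 was 2.49 ± 0.63 higher on the log2 scale (SE, adjusted p = 0.569), TGFB2 2.54 ± 1.10 and TGFBI 1.29 ± 0.67 (both adjusted p = 0.569). These values rest in large part on the library labelled 5637 sh-NC, since without it PMEPA1 was at 1.06, TGFBI at 0.12, TGFB2 at -0.04, SMAD3 at -1.01 and SKIL at -0.04. Without UM-UC-3 sh-NC, the only contrast left was the 2 5637 sh-LNMAT1 libraries against the library labelled 5637 sh-NC. There PMEPA1 was at 3.92, TGFBI at 2.46, TGFB2 at 5.11, SMAD3 at 1.29 and SKIL at 1.12.

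In UM-UC-3 alone there was 1 library per construct and so no test, and a gene was counted where it differed at least 2-fold from sh-NC, in the same direction, with both hairpins. This held for 1.08% of 12025 genes in the higher direction and 0.358% in the lower. Of the members PMEPA1 alone was counted, from 1.19 FPKM in sh-NC to 3.09 and 2.95, log2 differences of 1.09 and 1.04. SMAD3 was lower with both hairpins, at 37.4 FPKM in sh-NC, 16.5 with sh-LNMAT1#1 and 20.4 with sh-LNMAT1#2, log2 differences of -1.15 and -0.86. TGFBR2 was lower with both, by -0.86 and -0.63. TGFBI lay on opposite sides of sh-NC with the 2 hairpins, at -0.65 and 0.90, as did SKIL at 0.33 and -0.40. TGFB2 and SMAD7 stayed near the level in sh-NC, at -0.03 and -0.05 for TGFB2 and at -0.02 and -0.03 for SMAD7.

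The single count in UM-UC-3 depends on the setting. PMEPA1 was no longer counted with a pseudocount of 1, with a filter of 5 FPKM, or with scaling to the 75th percentile, where the log2 differences were 1.16 and 0.97. Of the 57 other superfamily genes that passed the filter in UM-UC-3, TSC22D1, a TGF-beta-stimulated transcription regulator, and IL11, a cytokine, were at least 2-fold higher with both hairpins and 0 were lower. TSC22D1 was 3.34 FPKM in sh-NC, 12.3 with sh-LNMAT1#1 and 9.24 with sh-LNMAT1#2. IL11 was 7.60 FPKM in sh-NC, 72.0 with sh-LNMAT1#1 and 20.5 with sh-LNMAT1#2.

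Against the library labelled 5637 sh-NC, 18.5% of 12791 genes were at least 2-fold higher and 12.3% at least 2-fold lower with both hairpins in the 5637 libraries. The members counted were TGFB2 (log2 differences of 4.93 and 5.28), PMEPA1 (3.69 and 4.14), TGFBI (2.21 and 2.71), SMAD3 (1.11 and 1.48) and SKIL (1.16 and 1.08), all 5 higher. TGFB2 passed the filter only through the 2 hairpin libraries, so it could be counted only as higher. SMAD7 differed by 0.87 and 1.03, and TGFBR1 and TGFBR2 by between -0.26 and 0.02. Over the 9 members the root mean square log2 difference from this library was 2.27 and 2.52 for the 5637 sh-LNMAT1 libraries and 0.360 for UM-UC-3 sh-LNMAT1#1, while the 2 5637 sh-LNMAT1 libraries differed from each other by 0.320. The receptors, for example, were 2.93 (TGFBR1) and 18.01 FPKM (TGFBR2) in the library labelled 5637 sh-NC and 2.97 and 18.1 FPKM in UM-UC-3 sh-LNMAT1#1. LINC01296 differed between these 2 libraries, at 11.7 and 6.20 FPKM. The differences from the library labelled 5637 sh-NC thus resembled the difference between the lines, and an effect of the hairpins and a difference of line cannot be told apart in them.

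**Figure D4:**
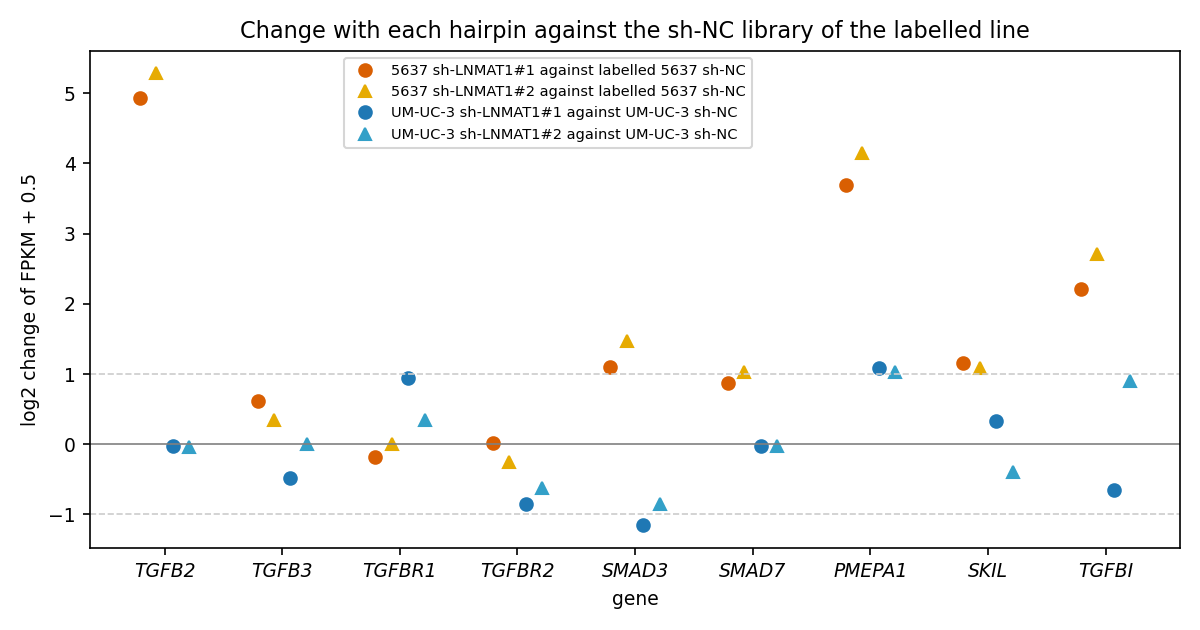
Log2 difference of FPKM + 0.5 between each sh-LNMAT1 library and the sh-NC library of its labelled line, 1 point per library, with dashed lines at 2-fold. PMEPA1 is at least 2-fold higher in all 4 libraries, TGFB2 in the 5637 libraries only, and SMAD3 is above 0 in 5637 and below 0 in UM-UC-3.

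To test whether the knockdown difference itself differed between the labelled lines, the product of line and knockdown was fitted over the 6 libraries. The 2 residual degrees of freedom come from the hairpin pairs alone, since each control is a single library and adds no spread of its own. Over 12717 genes, 9.99% were called with a more positive difference in 5637 and 8.79% with a more negative one. Of 7 members tested, TGFB2 (5.14 ± 0.39, adjusted p = 0.0029), PMEPA1 (2.86 ± 0.41, adjusted p = 0.0108) and SMAD3 (2.30 ± 0.40, adjusted p = 0.0189) were called, on the log2 scale with SE. TGFBI (2.34 ± 0.91, adjusted p = 0.130), SKIL (1.16 ± 0.52, adjusted p = 0.169), TGFBR1 (-0.73 ± 0.48, adjusted p = 0.312) and TGFBR2 (0.62 ± 0.37, adjusted p = 0.271) were not. TGFB2 reached the filter only through the 5637 sh-LNMAT1 libraries. It could therefore have been tested only with a more positive difference in 5637, and its call is no support for a direction. Every one of these values uses the library labelled 5637 sh-NC as the control of 5637. Without a filter on low values the adjusted p was 0.0503 for PMEPA1 and 0.0724 for SMAD3.

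For the 7 members that averaged 1 FPKM or more, the gene most alike in its course over the 6 libraries was sought among 11538 genes by the root mean square difference of centred log2 values. For TGFB2 this was SERPINH1, a collagen chaperone, at a difference of 0.0532, with 15.3 and 19.6 FPKM in the 5637 sh-LNMAT1 libraries and at most 0.0155 in the others. For TGFBR2 it was RACGAP1, a regulator of cytokinesis, at 0.0370, and for TGFBR1 BLOC1S6, a subunit of a lysosome biogenesis complex, at 0.0640. SKIL was nearest to RALGPS2 at 0.0765, SMAD3 to the glycolytic enzyme PGK1 at 0.165, PMEPA1 to the cholesterol exporter ABCA1 at 0.199 and TGFBI to TRIM16 at 0.353. With 6 libraries in essentially 2 sets, many genes share such a course, and these neighbours are a description.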

How the data were processed

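Gene levels were measured by RNA sequencing of 6 libraries from a stranded mRNA kit. The submitters' processing notes name HISAT2 and hg38, and the counting program and annotation are not given in the sources used here. The authors deposited FPKM in 1 table of 50869 rows, of which 1 had no values, and 0 columns were left unassigned. Depth was recovered from 14653 single-exon genes, where FPKM times exon length gave whole fragments within 0.02 in at least 99.92% of values. With the summed lengths of distinct exons in GENCODE 29, 93.2% of 123071 values of genes with several exons also came out whole. Counts of fragments were used only for 95% exact Poisson intervals and exact binomial intervals of ratios, which cover counting error only. FPKM not being counts, no count-based test was run.

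R 4.3.3 with limma 3.58.1 (lmFit, eBayes with a trend) and Python 3.11.15 with pandas 2.3.3 were used. Values were log2(FPKM + 0.5), genes averaging 1 FPKM or more over the libraries of a comparison were kept, and a gene was called where its p, adjusted by Benjamini-Hochberg over all genes tested, was under 0.05. Nothing in the labels says that libraries came from separate cultures, so p-values measure the spread between these libraries. The fit was tested on simulated data. The members, lists and tests were chosen with earlier results of these data known. Named were all members, per list at most 3 called genes in each direction, the superfamily genes 2-fold changed with both hairpins in UM-UC-3, the nearest gene to each member and LINC01296. NKILA, TGFB2-OT1, TGFBR3, LTBP1, LTBP3, SMAD2 and SMAD4 were named outside this rule, after their values were seen. Of the listed genes 2 that the rule names are counted but not reported here. Alternatives were pseudocounts, filters, scaling, fold limits, single hairpins, limma without a trend, other covariates and libraries left out.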

Additional observations from a re-analysis of the deposited data

Results flagged for a closer look

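For 3 genes the difference between sh-LNMAT1 and sh-NC libraries itself differed between 5637 and UM-UC-3 by a test, and for SMAD7 it had opposite signs without a test. The log2 difference in 5637 minus that in UM-UC-3 was 5.14 for TGFB2, 2.86 for PMEPA1 and 2.30 for SMAD3, each past the threshold of the interaction fit by limma. TGFB2 reached the filter only through the 5637 sh-LNMAT1 libraries, so its call could have been in this direction only. For SMAD7 it was 0.97, given here because both 5637 libraries lay above the library labelled 5637 sh-NC and both UM-UC-3 libraries below UM-UC-3 sh-NC, at -0.02 and -0.03. SMAD7 did not pass the filter over the 6 libraries, so its difference was not tested. In UM-UC-3 it had 133 and 136 fragments against 151 in sh-NC. Their 95% counting intervals, 0.527 to 0.746 and 0.524 to 0.739 FPKM, overlapped that of sh-NC, 0.546 to 0.756, so no sign is established there. With 75th percentile scaling 1 of the UM-UC-3 values was 0.02, so the opposite signs do not hold there. All 4 values use the library labelled 5637 sh-NC, whose likeness to UM-UC-3 sh-LNMAT1#1 is given with the members' values, and its part in them was not tested.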

How the results depend on the processing

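The line comparison called 4949 genes and 4 members. A filter of 5 FPKM left 2325 genes and 2 members, since SMAD7 and SKIL were no longer tested, and no filter left 2 members. Using all 6 libraries by their labels left 2 genes and 0 members and put SMAD3 at -0.24, a setting that counts the library labelled 5637 sh-NC as 5637. Leaving out 1 library gave 1192 to 5573 genes and 2 to 5 members, the low counts coming without either 5637 library, with TGFBR1 between -0.11 and 0.49. The hairpin number as a replicate block gave 5250 genes and 4 members and changed no member's call, with TGFB2 at 5.04 and PMEPA1 at 3.81; the numbers mark a shared hairpin, not a shared culture. The pooled comparison called 0 genes in every setting but 1, and libraries left out gave 0 to 4025 genes and 0 to 5 members, the high counts without UM-UC-3 sh-NC. Members there ranged from -0.035 to 5.11 for TGFB2, -1.01 to 1.29 for SMAD3, -0.037 to 1.12 for SKIL and -0.0895 to 0.65 for TGFBR1. The interaction called 2388 genes and 3 members, 883 genes with a filter of 5 FPKM and 1 member without a filter. Members 2-fold changed with both hairpins in UM-UC-3 numbered 1, and 0 with a pseudocount of 1, a filter of 5 FPKM or 75th percentile scaling, 3 at 1.5-fold and 2 with sh-LNMAT1#1 alone. In 5637 they numbered 5, and 3 with 75th percentile scaling, which moved the median of all genes from -0.02 to -0.12 in the line comparison and from -0.01 to -0.18 in the interaction. Where not said, the cause of a change was not tested. Settings for count tables were not run, the values being FPKM. With 1 library per construct, fragments limit TGFB2 in 4 libraries and TGFB3, and the lack of replicates limits the rest.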
